A study of Mus musculus with 3 samples.

Results

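Translation initiation factors were described here in mouse macrophages: the genes whose symbol opens with Eif1 to Eif6 and that carry at least 1 protein-coding transcript, leaving out the eIF2 kinases and the gamma subunit copies on the sex chromosomes. The rule found 49 genes among 55536 annotated genes, of which 21901 have a coding transcript. The rule used names and transcript classes, and no measured value. The cells were macrophages grown from bone marrow of C57BL/6J mice, whose sex and age the labels do not record. They had received Lipid A, a bacterial membrane lipid that Toll-like receptor 4 senses, at 100 ng/ml for 12 h, were kept without it for 12 h, and received 100 ng/ml again for 20 min. Total RNA of the cytosolic fraction was sequenced after ribosomal RNA depletion, in 3 libraries labelled as biological replicates of 1 group that share 1 donor entry. Every cell was treated in the same way, so no value below describes a response to Lipid A, and differences between libraries measure only the spread among these 3 preparations.

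Initiation brings a ribosome, a methionyl initiator tRNA and an mRNA together at a start codon. eIF2 carries the tRNA, and eIF1 and eIF1A hold the small subunit open. The eIF4F complex of cap-binding eIF4E, helicase eIF4A and scaffold eIF4G recruits the mRNA through its cap. A pair of brakes is known to act in stimulated macrophages: phosphorylation of eIF2, which blocks its exchange factor eIF2B, and the eIF4E-binding proteins, which mTOR kinase switches off; both act on proteins, which RNA levels do not report.

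The libraries held 32055937, 43616634 and 47864978 expected counts on genes in replicates 1, 2 and 3. All 7 macrophage markers examined reached 1 TPM (a level corrected for transcript length and library total) in every library, with a summed level of 4535 to 5282 TPM. Of 12 markers of other blood and stromal cells, 3 did so (S100a8, S100a9 and Cd79b), 2 were at 0 in every library (Ly6g and Hbb-bs), and their summed level was 8.74, 11.1 and 18.0 TPM in replicates 1, 2 and 3. Nuclear RNAs differed among the libraries of this cytosolic fraction: Malat1 stood at 612, 156 and 637 TPM. Neat1 followed the same order with 24.8, 12.7 and 52.4 TPM, and Xist reached 13.4, 0.66 and 3.42 TPM. Replicate 2 was lowest for all 3 RNAs. Protein-coding genes held 32.7%, 27.4% and 27.8% of the TPM of all genes, so TPM values here are low in absolute terms and are compared between genes, while libraries are compared on counts scaled by TMM (trimmed mean of M values). TPM values were taken from the first of the 2 deposited quantifications unless the second is named.

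Nearly every initiation factor was present. Of the 49 genes, 48 reached 1 TPM in every library, against 9089 of the 21901 genes with a coding transcript. The median over the 49 was 21.6 ± 0.82 TPM (SD, n = 3). The 9089 coding genes at 1 TPM or more in every library had a median of 8.47 ± 0.54 TPM, the 20 cytosolic and dual-function aminoacyl-tRNA synthetase genes 17.8 ± 0.77 TPM, and the 83 cytosolic ribosomal protein genes 175 ± 18.4 TPM. As differences of medians on the log2(TPM + 1) scale, initiation factors lay 1.26 ± 0.08 above the other coding genes at 1 TPM or more, 0.27 ± 0.08 above the synthetases and below the ribosomal protein genes (-2.96 ± 0.20), each with the same sign in 3 of 3 libraries. An exact sign-flip test over 3 libraries cannot go below p = 0.25, so these differences carry no test. Together the 49 genes held 0.568 ± 0.028% of the coding TPM, against 5.53 ± 0.75% for the ribosomal protein genes.

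A small set of genes dominated the levels. Eif1, Eif4a1, Eif4g2 and Eif5a held 40.9 ± 0.99% of the summed TPM of the 49 genes, and the lowest of them, Eif5a at 139 ± 4.22 TPM, lay well above the next, Eif3h at 53.1 ± 7.14 TPM. The order within these levels was not firm: of the 3 pairs of neighbours among the 4 highest 1 kept its order in every library, and of the 43 pairs below them 10 did. These levels cover all transcripts of a gene. On its main coding transcript, Eif1-201, Eif1 stood at 122 ± 9.55 TPM, below Eif5a.

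**Figure D1:**
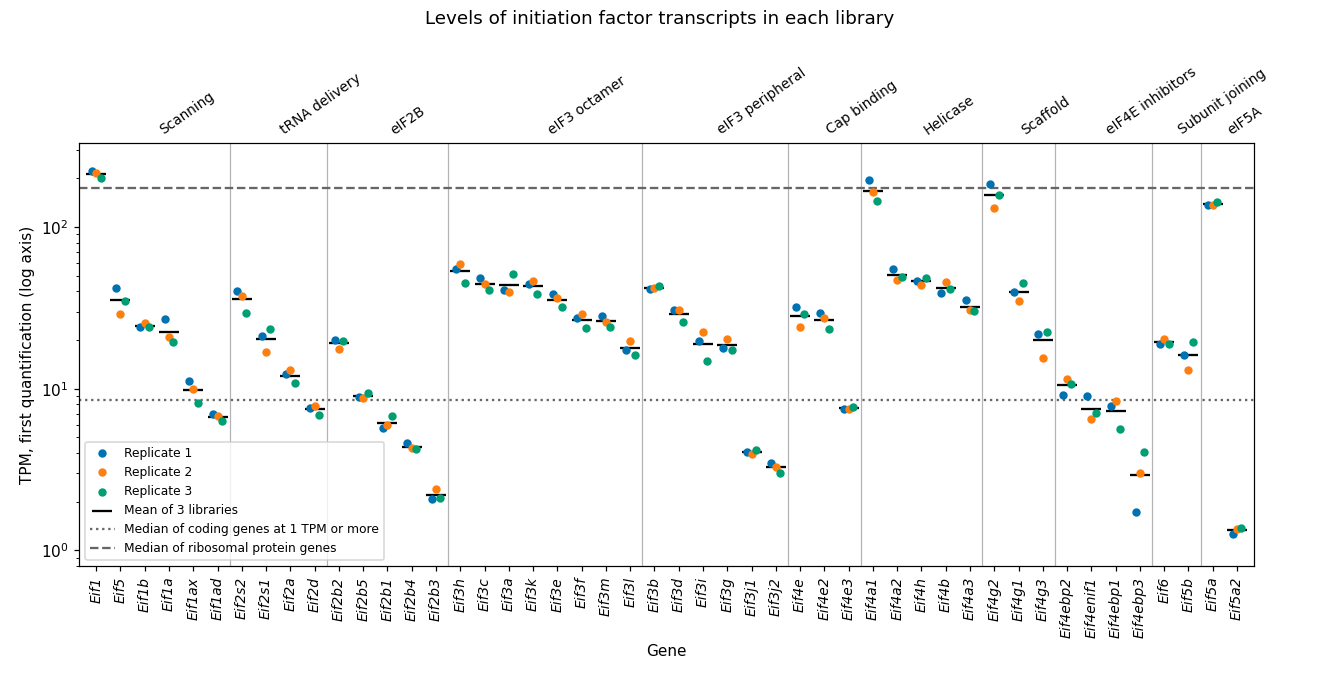
Level of each initiation factor (TPM, log axis) in the 3 libraries, grouped by role and ordered by mean within a role; black bars are means, the dotted line is the median of coding genes at 1 TPM or more (8.47 TPM) and the dashed line that of ribosomal protein genes (175 TPM). Over all transcripts, Eif1, Eif4a1, Eif4g2 and Eif5a stand apart at 139 TPM or more. Eif4e1b, at 0 counts, is not drawn.

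Start codon selection was led by Eif1, the factor that keeps the scanning ribosome from stopping at a wrong codon. Eif1 (chromosome 11) stood at 221, 217 and 201 TPM, and its paralogue Eif1b at 24.0, 25.4 and 24.1 TPM. The libraries agreed closely for both, and the log2 ratio of Eif1 over Eif1b was 3.12 ± 0.08. On coding transcripts alone, a comparison added after the data had been seen, it was 2.33 ± 0.11, since a short noncoding transcript described below holds part of the Eif1 TPM. eIF1A, which binds the A site of the small subunit, is encoded by 2 genes here: Eif1a stood at 27.0, 20.8 and 19.5 TPM and the X-linked Eif1ax at 11.2, 9.94 and 8.14 TPM. Eif1ax was the lower copy in every library, by -1.20 ± 0.11 in log2, and by -2.27 ± 0.23 on coding transcripts alone. Eif5, which triggers GTP hydrolysis by eIF2 at the start codon, stood at 42.1, 28.9 and 34.7 TPM, and Eif1ad, whose product has an eIF1A-like domain, at 6.96, 6.75 and 6.29 TPM.

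Genes for tRNA delivery were of middling level, and the exchange factor that recharges eIF2 was low. Eif2s2 (beta subunit) stood at 40.4, 37.6 and 29.5 TPM and Eif2s1 (the alpha subunit, phosphorylated in the integrated stress response) at 21.2, 16.8 and 23.3 TPM. Beta exceeded alpha in every library, but over all transcripts the log2 ratio of 0.81 ± 0.43 varied widely and was 0.44 ± 0.28 in the second quantification. On coding transcripts alone the ratio was 1.14 ± 0.23, and 1.23 ± 0.26 in the second quantification. Eif2a and Eif2d, alternative carriers of initiator tRNA, stood at 12.3, 13.0 and 10.8 TPM and at 7.60, 7.85 and 6.91 TPM.

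The 5 eIF2B subunits had a median of 6.14 ± 0.55 TPM and spanned 8.70-fold over all transcripts, although the complex holds them in equal numbers. Over all transcripts the regulatory subunit Eif2b2 was highest at 19.9, 17.7 and 19.8 TPM. The catalytic Eif2b5 stood at 8.95, 8.77 and 9.41 TPM, the regulatory Eif2b1 at 5.70, 5.97 and 6.76 TPM, and Eif2b4 at 4.63, 4.31 and 4.22 TPM. Eif2b3, a partner of Eif2b5 in the catalytic part, was lowest at 2.09, 2.39 and 2.12 TPM. The high value of Eif2b2 rested partly on a short transcript described below. Its main coding transcript, Eif2b2-201, stood at 10.4, 8.83 and 8.24 TPM, near Eif2b5 and below it in replicate 3. The rank of Eif2b2 and the width of the span therefore depended on the short transcript.

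The core of eIF3, the largest factor, was more even. Its 12 subunit genes other than Eif3j1 and Eif3j2 spanned 17.8 to 53.1 TPM, a 2.99-fold range. In the octamer that forms its body, Eif3h stood at 55.0, 59.2 and 45.2 TPM, Eif3c at 48.7, 44.3 and 40.9 TPM, and Eif3a at 40.7, 39.4 and 50.9 TPM. Eif3k followed at 44.3, 46.2 and 38.3 TPM, with Eif3e, Eif3f, Eif3m and Eif3l between 17.8 and 35.6 TPM on average. The ranges of Eif3h, Eif3c, Eif3a and Eif3k overlapped, Eif3l was the lowest octamer gene in every library, and Eif3a was the octamer gene highest in replicate 3.

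Outside the octamer, Eif3b (the scaffold of the peripheral module) stood at 41.2, 42.1 and 43.0 TPM and Eif3d, which can itself bind a cap, at 30.9, 30.5 and 25.8 TPM. Eif3i stood at 19.9, 22.3 and 14.9 TPM and Eif3g at 18.0, 20.2 and 17.5 TPM. The loosely bound j subunit was far lower, with Eif3j1 at 4.05, 3.92 and 4.20 TPM and Eif3j2 at 3.47, 3.30 and 3.02 TPM.

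Among the cap-binding genes, Eif4e and Eif4e2 lay close together. Eif4e, the cap-binding subunit of eIF4F, stood at 32.1, 24.1 and 28.9 TPM; Eif4e2, which binds caps without eIF4G and represses its targets, at 29.5, 27.3 and 23.5 TPM. Eif4e was higher in 2 of 3 libraries, with a log2 ratio of 0.08 ± 0.24, and in 3 of 3 in the second quantification (0.29 ± 0.24). Eif4e3 was lower and even, at 7.52, 7.50 and 7.66 TPM. Eif4e1b, known from oocytes, was the 1 gene to which the first quantification gave no count in any library. There 3 counts would have given 0.081, 0.050 and 0.048 TPM, a limit that covers counting error only. The second quantification placed 20.0, 4 and 19.4 estimated counts on Eif4e1b, or 0.338, 0.0469 and 0.139 TPM. These values lay above that limit in replicates 1 and 3, so the absence of counts depended on the quantification.

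The 5 helicase and cofactor genes summed to 339 ± 29.9 TPM, against 407 ± 23.4 TPM for the 14 eIF3 genes. Eif4a1, the main helicase of eIF4F, stood at 196, 164 and 145 TPM, and its close paralogue Eif4a2 at 55.0, 47.4 and 48.8 TPM, a log2 ratio of 1.73 ± 0.14. Eif4a3, a core protein of the exon junction complex, stood at 35.3, 30.8 and 30.3 TPM, and the log2 ratio of Eif4a1 over it was 2.38 ± 0.11, or 3.27 ± 0.17 on coding transcripts alone. The cofactors Eif4h, at 46.3, 43.9 and 48.5 TPM, and Eif4b, at 39.0, 45.6 and 41.3 TPM, could not be ordered, with Eif4h higher in 2 of 3 libraries (log2 ratio 0.14 ± 0.17).

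Of the scaffolds, the one that lacks an eIF4E site was the most abundant. Eif4g2 (also called Dap5) stood at 184, 132 and 157 TPM, Eif4g1 at 39.5, 34.9 and 44.8 TPM and Eif4g3 at 21.7, 15.6 and 22.4 TPM. The log2 ratio was 1.99 ± 0.21 for Eif4g2 over Eif4g1 and 1.01 ± 0.15 for Eif4g1 over Eif4g3, and the groups did not overlap.

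The eIF4E-binding proteins and the eIF4E transporter lay between 2.94 and 10.5 TPM on average. Eif4ebp2 stood at 9.17, 11.5 and 10.7 TPM, Eif4ebp1 at 7.84, 8.41 and 5.61 TPM, and Eif4ebp3 at 1.73, 3.02 and 4.08 TPM. Eif4enif1, which carries eIF4E into the nucleus and to P-bodies, stood at 9.03, 6.52 and 7.07 TPM. Eif4ebp1 was lower than Eif4e in every library, by -1.97 ± 0.43 in log2. Eif4ebp2 exceeded Eif4ebp1 in every library, but by an uneven margin (log2 ratio 0.54 ± 0.36).

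Late factors completed the set. Eif6, which keeps the large subunit from joining too early, stood at 18.8, 20.3 and 19.0 TPM, and Eif5b, the GTPase of subunit joining, at 16.1, 13.0 and 19.5 TPM. Eif5a, which eases peptide bond formation and carries the amino acid hypusine, stood at 137, 136 and 144 TPM, and its paralogue Eif5a2 at 1.27, 1.36 and 1.38 TPM. Their log2 ratio, 6.70 ± 0.05 or 104-fold, was the widest of the 14 pairs compared and among the steadiest across libraries.

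Most of the RNA assigned to Eif4a2 was of a class annotated for nonsense-mediated decay (NMD), the pathway that degrades mRNAs with a premature stop codon. This class held 60.4%, 70.4% and 74.4% of its TPM, and coding transcripts 27.8%, 27.7% and 20.2%. Replicate 1 had the lowest NMD share and replicate 3 the highest. By expected counts, coding transcripts held 26.1%, 20.8% and 18.0%, and in the second quantification, by TPM, 37.2%, 43.2% and 31.6%. Eif4a2 was the 1 initiation factor of 48 (2.08%) with at least 50% of its TPM on NMD transcripts, against 109 of 9089 coding genes (1.2%). Restricted to coding transcripts, the log2 ratio of Eif4a1 over Eif4a2 was 3.68 ± 0.12, against 1.73 ± 0.14 over all transcripts, and 2.95 ± 0.20 in the second quantification.

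A pair of exon choices accounted for the named NMD transcripts of Eif4a2, shown here because the letters carry the change of frame (GENCODE M21 transcripts, mm10, plus strand of chromosome 16). The first line gives the exon of 140 bases at chr16:23109120-23109259 in capitals, with 15 bases of the neighbouring exons on each side. The second gives Eif4a2-210, which skips it, through the premature stop codon in capitals at chr16:23110065-23110067. The third gives the entry of Eif4a2-204 into an extra exon of 107 bases at chr16:23112351-23112457, whose stop codon at chr16:23112358-23112360 is in capitals.
Eif4a2-201: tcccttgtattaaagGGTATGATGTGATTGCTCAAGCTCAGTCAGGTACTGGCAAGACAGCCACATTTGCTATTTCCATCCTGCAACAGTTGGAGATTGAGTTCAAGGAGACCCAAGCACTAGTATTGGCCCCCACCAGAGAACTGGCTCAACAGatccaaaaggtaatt
Eif4a2-210: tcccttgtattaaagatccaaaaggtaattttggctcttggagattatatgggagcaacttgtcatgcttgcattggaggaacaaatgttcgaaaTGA
Eif4a2-204: aaactatattcacaggagtcgaTAG

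Because 140 is not a multiple of 3, its removal changes the reading frame. Eif4a2-210 held 39.8%, 48.3% and 46.9% of the Eif4a2 TPM and 33.2%, 40.8% and 42.8% in the second quantification. Eif4a2-204 held 13.9%, 15.1% and 17.6%. Summed over all 8 annotated transcripts that join the exons on either side of the 140 bases, the share was 46.8%, 55.3% and 57.1%, on 1970, 3237 and 3582 expected counts, against 41.8%, 42.7% and 37.8% for the 6 that hold the exon. The second quantification gave 42.1 ± 5.33% and 50.2 ± 4.60% for these sums, so which form was more frequent depended on the quantification, while a large share of both was found in each. Exons of Eif4a2 overlap 6 other genes on the same strand, among them Snora81 and Snord2, and Rfc4 on the other strand. Whether strand was used in counting is not given in the sources used here, so some of these reads may belong to the neighbours.

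Other initiation factors were mostly on coding transcripts. The median coding share over the 48 genes at 1 TPM or more was 99.0 ± 0.60%, against 97.8 ± 1.01% over 9089 coding genes, and 38 of 48 (79.2%) had at least 90% on coding transcripts, against 72.3% of coding genes. By TPM, Eif4a2 (25.2%), Eif1ax (47.9%) and Eif2b2 (49.4%) lay below 50% on average, 6.25% of the 48 genes against 4.82% of coding genes. By expected counts Eif4a2 alone did, at 21.6%, or 2.08% against 2.55% of coding genes, with Eif1ax at 95.9% and Eif2b2 at 89.5%: a retained-intron transcript of 416 bases held 52.1 ± 7.21% of the Eif1ax TPM and 1 of 338 bases 45.3 ± 8.76% of the Eif2b2 TPM, and a short transcript turns few reads into a high TPM. This comparison of counts with TPM was added after the data had been seen.

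The same held for 3 further genes. Eif1-202, a processed transcript of 383 bases, held 41.8 ± 1.86% of the Eif1 TPM, and Eif4a3-203, of 466 bases, held 47.6 ± 2.87% of the Eif4a3 TPM; by expected counts the coding shares were 90.3% and 85.2%. Eif2s1-203, of 433 bases, held 19.4 ± 10.8% of the Eif2s1 TPM, with 97.7% of expected counts on coding transcripts. For Eif2a, by contrast, the full-length NMD transcript Eif2a-207 of 1945 bases held 21.9%, 26.7% and 28.1% of the TPM, but 5.29 ± 5.53% in the second quantification.

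Some transcript shares depended on the library or on the method. Eif4ebp1-202, a processed transcript, held 36.4%, 6.88% and 38.0% of the Eif4ebp1 TPM, with replicate 2 apart, and 49.6%, 42.8% and 51.5% in the second quantification, where replicate 2 lay near the others. Eif5b-201, the coding transcript of Eif5b, held 92.0%, 97.7% and 95.1%, against 46.0%, 48.5% and 49.0% in the second quantification, which placed 46.3 ± 3.63% on the retained-intron transcript Eif5b-202. The retained-intron transcript Eif4g1-210 held 10.4 ± 3.34% of Eif4g1 and 0.275 ± 0.244% in the second. Eif4e was divided among 3 coding transcripts, Eif4e-201, Eif4e-202 and Eif4e-205, at 22.1 ± 0.89%, 35.8 ± 6.39% and 38.5 ± 5.47%.

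**Figure D2:**
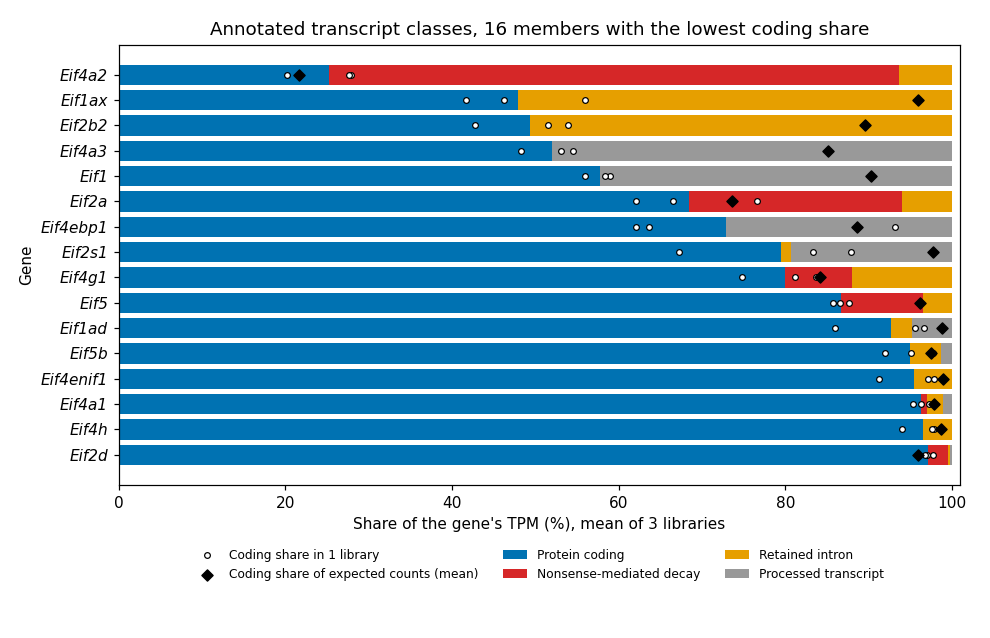
Share of TPM (%) by annotated transcript class, mean of 3 libraries, for the 16 initiation factors with the lowest coding share; open circles give the coding share in each library and diamonds the mean coding share of expected counts. Eif4a2 lies at 25.2% by TPM and 21.6% by counts, while the diamonds of Eif1ax and Eif2b2 lie at 95.9% and 89.5%.

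Differences between the libraries were small but measurable. Under edgeR's likelihood ratio test of library against counting noise alone, 44 of 48 initiation factors (91.7%) differed at a Benjamini-Hochberg adjusted p below 0.05 over all genes tested; the background was 71.1% of 12372 genes. Among genes with a mean of at least 500 expected counts, where counting noise is smaller, it was 42 of 44 (95.5%) against 83.8%. Requiring also that the highest library reach 1.5 times the lowest left 3 of 48 (6.25%), against 20.8% of all genes, and 2 of 44 (4.55%) against 11.4% at 500 counts or more. The median SD of log2 CPM (counts scaled to a common library total) across libraries was 0.143 for initiation factors. It was 0.137 for the 7196 coding genes at 500 counts or more. These medians were close, but the groups were not matched for depth. The 500-count and 1.5-fold thresholds were chosen after the data had been seen.

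The 3 genes past 1.5-fold included both 4E-BP genes of lower level. Eif4ebp1 stood at 16.7, 25.7 and 12.7 CPM, a 2.02-fold range (edgeR adjusted p = 1.64e-46) that was 1.32-fold without replicate 2. Eif4ebp3 stood at 1.41, 2.84 and 3.66 CPM, a 2.59-fold range (edgeR adjusted p = 1.91e-08), which without replicate 1 was 1.29-fold and missed the threshold (edgeR adjusted p = 0.0558). In the second quantification Eif4ebp3 stood at 1.17, 1.13 and 1.30 TPM, against 1.73, 3.02 and 4.08 TPM in the first. Its range therefore depended on the quantification, and its exons overlap those of AC115631.1 on the same strand. Eif4ebp1, at 4.53, 5.99 and 2.83 TPM in the second, and Eif3i, at 9.53, 11.9 and 6.46 TPM, kept their order of libraries. Eif3i stood at 28.3, 36.1 and 23.0 CPM, a 1.57-fold range (edgeR adjusted p = 2.52e-29) that was 1.23-fold without replicate 2 and 1.28-fold without replicate 3. Replicate 2 was highest for Eif4ebp1 and Eif3i, and replicate 3 for Eif4ebp3. Eif4ebp2 fell just short, at 78.2, 116 and 102 CPM, 1.49-fold.

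Eif4a2, Eif2b3, Eif2b4 and Eif3j2 did not pass the test. Eif4a2 was the most even in counts, at 123, 122 and 125 CPM (edgeR adjusted p = 0.532, and 0.0478 when no filter on low counts was applied), although its mix of transcripts varied. Eif2b3 stood at 4.95, 6.12 and 5.25 CPM (edgeR adjusted p = 0.0937, and 0.0328 without that filter). Eif2b4 stood at 11.6, 13.0 and 12.2 CPM (edgeR adjusted p = 0.270). Eif3j2 stood at 12.0, 12.9 and 11.2 CPM (edgeR adjusted p = 0.0861, 0.0319 without the filter and 0.0387 without replicate 1). Of these 4 genes, Eif2b4 alone stayed above 0.05 in every alternative run.

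eIF3 genes tended to be highest in the same library. Replicate 2 was highest for 11 of 14 eIF3 genes and for 29 of 48 initiation factors (60.4%), against 36.3% of 11166 coding genes; replicate 3 was highest for Eif3a, Eif3b and Eif3j1. Eif3h stood at 93.8, 114 and 82.7 CPM and Eif3a at 311, 343 and 397 CPM. The scaffolds went the other way: replicate 2 was lowest for all 3, with Eif4g3 at 177, 146 and 201 CPM. These counts say where members lay, with no test of the difference from other genes.

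Library differences varied with transcript length, and nuclear RNA differed among the same libraries. Across 48 initiation factors, the log2 ratio of replicate 3 over replicate 2 had a Spearman correlation of 0.44 with mean transcript length. Across 7196 coding genes at 500 counts or more it was 0.36. This was the strongest of the library pairs. Replicate 3 over replicate 1 gave 0.34 and 0.16, and replicate 2 over replicate 1 gave -0.31 and -0.18. Genes share their libraries, so no p is given. For replicate 3 over replicate 2, the median log2 ratio was 0.10 for the 12 initiation factors of 3000 bases or more. It was -0.19 for the 36 shorter, against 0.06 and -0.07 for coding genes. The split at 3000 bases was chosen after the data had been seen. Replicate 2 was also the library lowest in Malat1, Neat1 and Xist. The part of length and of nuclear RNA in the differences between libraries was not tested.

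**Figure D3:**
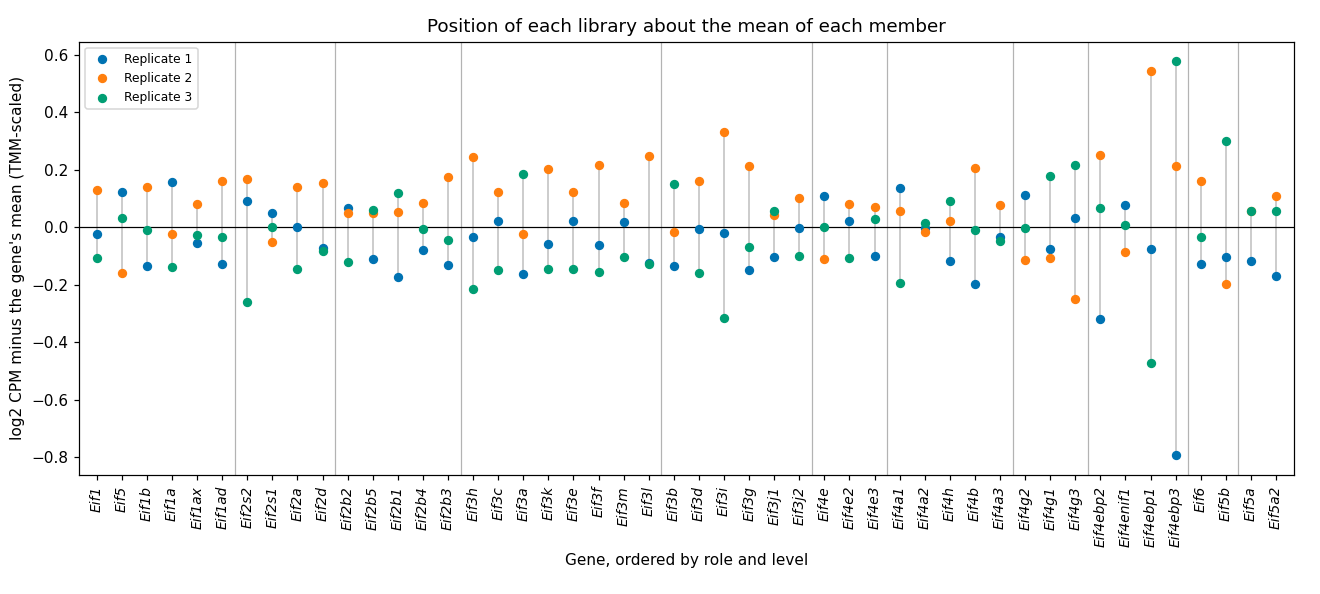
Position of each library about the mean of each initiation factor (log2 CPM after TMM scaling minus the mean of the 3 libraries), ordered by role and level; grey lines join the lowest and highest library. Replicate 2 is highest for 11 of 14 eIF3 genes and lowest for the 3 scaffolds, Eif4a2 is tightest and Eif4ebp3 and Eif4ebp1 spread widest.

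The 2 deposited quantifications of the same reads gave similar relative levels for most initiation factors. As deposited, the first lay 2.02-fold above the second at the median of coding genes, a shift of scale (log2 -1.02 ± 0.16, second over first), and 4 of 48 initiation factors (8.33%: Eif2b5, Eif3b, Eif3j1 and Eif4a3) were at least 2-fold higher in the first in every library, against 5.59% of genes. None was 2-fold higher in the second in every library, against 0.288%. The count rests on replicate 2, where the shift was smallest (-0.87): without it, 29 initiation factors passed. After both were scaled to coding genes the median shift was -0.004, and none of 49 was 2-fold higher in the first (background 0.396%). Of the 48 with counts, none was 2-fold higher in the second (background 2.07%); Eif4e1b is listed at 0 in the first, so that any estimate above 0 passes, and no fold is given for it.

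The j subunit copies changed order. After scaling, the ratio of the first quantification to the second was 1.54 ± 0.13 for Eif3j1 and 0.55 ± 0.02 for Eif3j2. Eif3j1 exceeded Eif3j2 by a log2 ratio of 0.32 ± 0.14 in the first and fell below it in all libraries in the second (-1.16 ± 0.28). Expected counts of both genes were not whole numbers, as happens when reads are divided among genes, and their relative level is uncertain. Eif4ebp3 was the least stable across libraries, with a ratio of 1.20 ± 0.40, and its expected counts were not whole either. Over the 49 genes, expected counts were whole (within 0.005) in every library for 31 and not for 18.

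**Figure D4:**
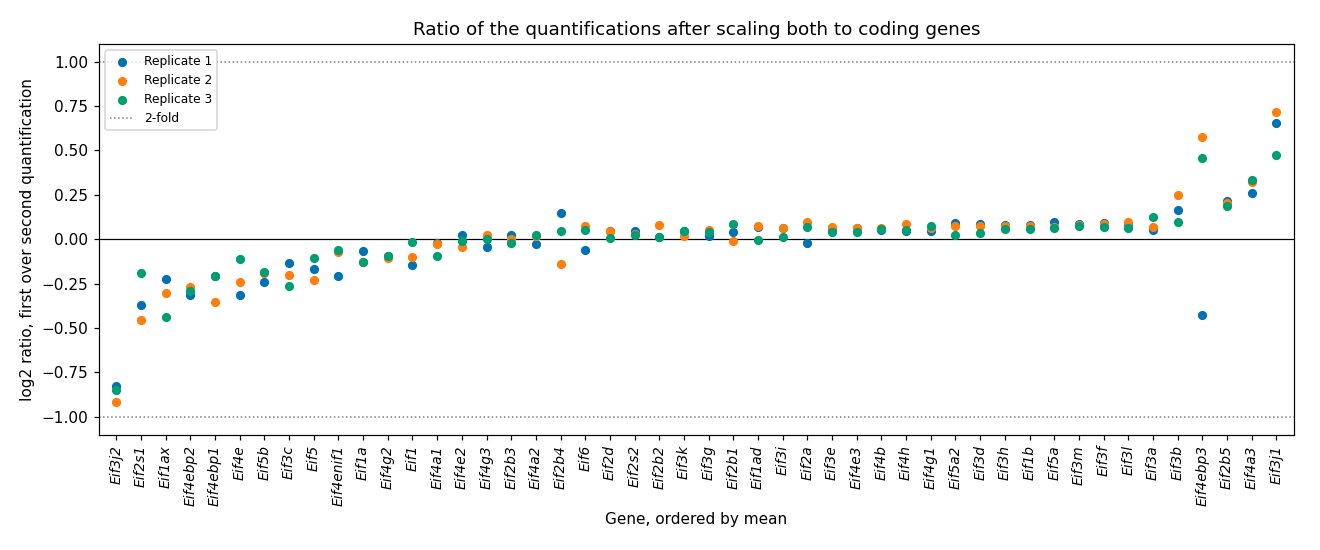
Log2 ratio of the first over the second quantification in each library, both scaled to coding genes, for the 48 initiation factors with counts; dotted lines mark 2-fold. Eif3j2 (0.55 as a ratio) and Eif3j1 (1.54) lie at the ends, and replicate 1 of Eif4ebp3 lies apart from its other libraries.

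RefSeq promoter windows (GRCm38.p6, 250 bases before to 50 after each start) were found for 37 of the 49 genes, 49 windows in all, some of which overlap because a gene has several starts. A set of 4 patterns was looked for, chosen after the data had been seen. CACGTG, an E-box that reads the same on both strands and that Myc and related factors can bind, lay in 12 of 49 windows (24.5%), against 7.15% of all 32851 windows and 10.7% of the 9297 windows of coding genes at 1 TPM or more. CCGGAAGT, searched on both strands, lay in 9 (18.4%), against 3.89% and 9.55%. Of 75 ribosomal protein windows, 16% held CCGGAAGT, near the share of initiation factors, and 10.7% held CACGTG. The 10-base palindrome bound by NRF1 lay in 1 (2.04%), against 0.971% and 2.34%. A C at the start followed by 4 or more pyrimidines is the form of a terminal oligopyrimidine (TOP) tract. It lay at the start of 1 window (2.04%), against 2.51% and 2.24%, and of 17.3% of 75 ribosomal protein windows. The pattern was read only from the annotated start base, so a tract that begins elsewhere is missed and a low share does not show absence. The first 3 patterns cannot coincide, though their ends may overlap by a few bases.

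The E-box windows of 5 initiation factors are shown, whose boxes lie before the start and outside annotated exons. Of these, 3 (Eif4a1, Eif4g1 and Eif5a) encode abundant or scaffold factors. Eif5a2, at 1.34 ± 0.06 TPM, also had such a box, 117 bases before its start, and is not shown. CACGTG is in capitals; its first base lies 189 bases before the start in Eif4a1 (chr11:69672577-69672642, minus strand), 54 in Eif4g1 (chr16:20672643-20672708, plus), 74 from the nearer of 2 starts in Eif5a (chr11:69921425-69921490, minus), 68 in Eif3f (chr7:108934317-108934382, plus) and 44 in Eif3k (chr7:28981897-28981962, minus).
Eif4a1: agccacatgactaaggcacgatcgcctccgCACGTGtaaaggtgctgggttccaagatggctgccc
Eif4g1: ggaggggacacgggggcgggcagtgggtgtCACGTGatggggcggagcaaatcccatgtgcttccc
Eif5a: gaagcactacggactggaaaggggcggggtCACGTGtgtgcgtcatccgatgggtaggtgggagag
Eif3f: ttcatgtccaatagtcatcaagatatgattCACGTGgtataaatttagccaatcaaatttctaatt
Eif3k: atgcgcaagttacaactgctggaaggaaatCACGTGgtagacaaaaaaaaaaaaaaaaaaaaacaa

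Eif3f also held the single TOP-like start, a pyrimidine run of 11 bases in capitals after 10 bases that precede the RefSeq start (chr7:108934405-108934434, plus strand). A match describes letters in these windows and shows neither binding nor use.
Eif3f start: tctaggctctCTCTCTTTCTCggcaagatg

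Other genes of initiation and its control were mostly present as well. All but 1 of 28 such genes were at 1 TPM or above in each library, and the list's median was 12.1 ± 0.75 TPM. Of the 27 tested, 23 differed between libraries beyond counting noise by edgeR. The background was 71.1% of all genes, and 83.8% of genes with a mean of at least 500 expected counts, a depth that most of the 27 reached. The highest were Tpt1, a translationally controlled protein with a TOP tract, at 695, 668 and 501 TPM, Pabpc1, the poly(A)-binding partner of eIF4G, at 213, 214 and 260 TPM, and Cyfip1, an eIF4E-binding repressor, at 54.7, 33.1 and 51.1 TPM. The lowest was Mcts2 at 0.14 ± 0.11 TPM. Ppp1r15a (Gadd34), which directs the phosphatase that reactivates eIF2, stood at 28.7, 24.0 and 15.2 TPM and spanned 2.04-fold in CPM (edgeR adjusted p = 1.35e-141). Pdcd4, an inhibitor of eIF4A, was low at 1.51, 2.42 and 2.39 TPM, and Mknk2, a kinase of eIF4E, stood at 30.0, 33.9 and 31.9 TPM.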

How the data were processed

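Per the labels, each library is ribosome-depleted total RNA of the cytosolic fraction, mapped to mm10. For each, the authors deposited a gene and a transcript table with expected counts, TPM, and credibility bounds of TPM (signal values not printed here), and the percent of a gene's TPM on each transcript, per the file headers. A second transcript table gives TPM and estimated counts, also deposited by the authors; its TPM were summed per gene. Which programs, versions and strand settings made them is not given in the sources used here. All 55536 gene IDs matched GENCODE M21, which supplied coordinates.

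Expected counts were rounded for edgeR 4.0.16 (R 4.3.3): TMM factors, default filter on low counts, dispersion 0, likelihood ratio test of library against a constant, Benjamini-Hochberg adjustment over 12372 genes. Dispersion 0 tests against counting noise only. The step was also run on counts simulated with counting noise only. It recovered 60%, 86%, 98% and 100% of genes changed 1.25-, 1.5-, 2- and 4-fold and called 10 unchanged genes, of 12928. With no other noise simulated, false calls in the real libraries were not measured. DESeq2 1.42.0 supplied alternative size factors. Ratios are log2 of TPM within a library; errors are SD over 3 libraries. A pseudocount of 1 was added only where stated. PCR duplicates were not separable, so limits cover counting error only. Other computation used Python 3.11.15 with pandas 2.3.3. All genes of the name rule were accounted for, transcripts at 10% or more on average were open to naming, and of the 28 other genes the 3 highest, the lowest and Ppp1r15a, Pdcd4, Mknk2 and Pabpc1 were named. Genes, lists and pairs were chosen with earlier results of these data known. A planned cell type marker is not reported here.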

Additional observations from a re-analysis of the deposited data

How the results depend on the processing

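The median level of initiation factors, 21.6 TPM, was 74.4 TPM when TPM was rescaled over coding genes and 11.3 TPM in the second quantification, as the scale itself moved. The number at least 2-fold apart between quantifications, 4, was 42 at 1.5-fold, 0 at 4-fold and 1 after both were rescaled (Eif4e1b, which was not among the 48 compared as deposited), and 4 to 29 with 1 replicate left out. The median coding share, 99.0%, was 97.9% in the second quantification. There the log2 difference of medians from ribosomal protein genes was -2.67 and from synthetases 0.38; with 0.1 added in place of 1, that from other coding genes was 1.35. The log2 ratio of Eif3j1 over Eif3j2 reversed in the second quantification, to -1.16; the cause was not tested. The 48 genes at 1 TPM became 33 at 10 TPM.

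The 44 genes beyond counting noise became 42 with DESeq2 size factors, 45 without the filter and 34 to 36 with 1 replicate left out, when background fell to 51.6% to 53.4%. Of 14 pairs, the first gene was higher in every library for 10, and for 10 to 12 with 1 replicate left out. No paired analysis was possible because there is 1 group. With 3 libraries of 1 group and a shared donor entry, the spread may be technical, and groups of 3 allow no test for outlying samples.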
